A study of Drosophila melanogaster with 4 samples.

Results

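The genes described here are Myc and 9 nucleolar genes that make or modify ribosomes, chosen by name from FlyBase symbols: Fib, Nop56, nop5, Nop60B, Nopp140, Surf6, bys, pit and Tif-IA. Of these 10 genes, 8 were found among the 14869 gene IDs of the files. Myc and pit have no ID there that the name tables pair with them, so no value is given for either. The files may list them under older IDs, which were not analysed here. What follows concerns the other 8. All 8 were above the minimum of a mean of 20 counts, as were 7883 genes in all. The study followed polyadenylated RNA in exponentially growing Drosophila S2 cells, a line of embryonic origin, after inhibition of the chaperone Hsp90. Cells received radicicol, a compound that occupies the ATP pocket of Hsp90, at 40 µM in DMSO for 15, 30 or 60 min, or DMSO, which the labels place at 0 min. There was 1 library for each of these 4 conditions.

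Ribosomes are built in the nucleolus. RNA polymerase I transcribes the rRNA precursor there, small nucleolar RNPs (snoRNPs) guide its methylation and pseudouridylation, and a large set of assembly factors folds and cuts it. Myc is a transcription factor that raises the output of this whole programme in fly cells, acting with its partner Max. In yeast and human cells Hsp90 works with the R2TP complex, which contains the ATPases named pont and rept in the fly, to assemble the box C/D snoRNPs.

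The radicicol libraries held 28614983 to 31028233 gene counts each and the DMSO library 19153476. The 8 genes together took 43335 to 65565 of these counts per library. Unaligned reads made up 17.8% to 21.5% of the radicicol libraries and 44.1% of the DMSO library, which therefore stands apart. The part of this gap in the results was not tested, and the genes are also compared between radicicol libraries. Of 12 haemocyte markers, the cell type S2 cells resemble, 11 were measured, with a summed level of 8517 to 13903 CPM per library (the usual depth-scaled count, with library sizes scaled by TMM). The exception was gcm, which had at most 0.033 CPM. None of 5 fat body markers was measured (summed level 0.096 to 0.28 CPM). The neuronal, muscle and germ line lists, of 5 symbols each, had 2, 3 and 3 measured genes, with summed levels of 2.59 to 19.1, 21.6 to 35.4 and 85.2 to 105 CPM. Their symbols para, Mhc, wupA, vas and nos had no paired ID. Most of each sum came from 1 gene, elav, Act88F and aub in that order. The sums of these 4 lists with measured genes were highest at 60 min, and their part in the results was not tested. The muscle genes Mlc2 and up were lowest at 60 min (1.05 and 0.79 CPM, against 1.38 and 1.54 in DMSO). In a bulk sample, fewer cells of a type and less RNA per cell cannot be told apart.

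Intervals are exact 95% intervals that cover counting error only, since no condition was repeated. A gene is called higher or lower between 2 libraries when it differs by at least 2-fold with its interval on that side of 0, with no p-value. A gene is said to rise or fall only where it passed the slope test, a straight line over minutes through the 4 libraries (edgeR quasi-likelihood test with p-values adjusted by Benjamini-Hochberg over the 7883 genes and a threshold of 0.05). Each slope is on the log2 scale, per 60 min. Its p-values measure the scatter about a line and not the spread between cultures. Over all genes the folds moved with exon length, and values "without the length relation" are those left after this dependence was taken out with a smooth curve.

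Over the hour, 5 of the 8 genes fell, 1 rose and 2 did not pass the test. Fib, Surf6, bys, nop5 and Nop56 fell, Nopp140 rose, and Nop60B and Tif-IA did not pass. Most of the differences were moderate: only Fib was past 2-fold at 60 min. Changes were common in these libraries, since 33.8% of all measured genes fell and 34.1% rose. The count rests on the 60 min library: without it 2 genes fell, Fib and Surf6, and 0 rose, where 7.41% of all genes fell and 11.5% rose. Without the DMSO library 3 genes fell, Fib, Surf6 and bys, and Nopp140 rose, where 25% of all genes fell and 28.8% rose.

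**Figure D1:**
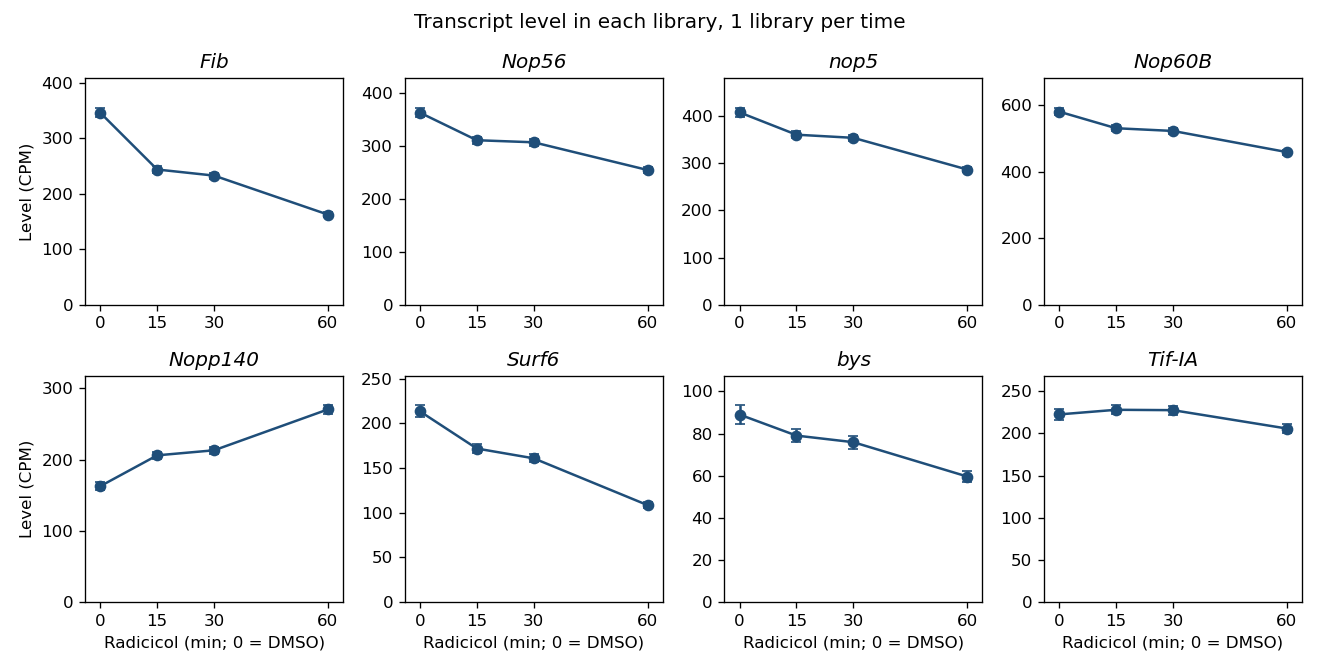
Level of each of the 8 genes (CPM, linear axis from 0) against minutes of radicicol, with the DMSO library at 0; each point is 1 library and bars are exact 95% counting intervals. Fib falls to 163 CPM at 60 min, against 346 CPM in DMSO, whereas Nopp140 stands at 270 CPM, against 163 CPM in DMSO.

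Among the genes for core proteins of box C/D snoRNPs, the particles that guide rRNA methylation, are Fib, Nop56 and nop5. Fib encodes fibrillarin, the methyltransferase itself. It had 346 CPM in DMSO (338 to 355), 244 at 15 min (238 to 250), 233 at 30 min (228 to 238) and 163 at 60 min (158 to 167). Each radicicol library was below DMSO, and the 60 min library was the lowest, with an interval apart from all others. The log2 fold against DMSO was -0.51 at 15 min (-0.55 to -0.46), -0.57 at 30 min (-0.62 to -0.52) and -1.09 at 60 min (-1.14 to -1.04). At 60 min the level was 47.0% of that in DMSO. The slope was -1.02 (edgeR adjusted p = 0.00126).

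Nop56 and nop5 encode the paired scaffold proteins onto which fibrillarin docks. Nop56 had 363 CPM in DMSO, 311 at 15 min, 307 at 30 min and 254 at 60 min. The gene nop5, the fly counterpart of Nop58, had 407, 360, 353 and 286 CPM in the same order. Both were highest in DMSO, nearly level between 15 and 30 min, and lowest at 60 min. Their log2 folds at 60 min were nearly the same, -0.51 for Nop56 (-0.56 to -0.46) and -0.51 for nop5 (-0.55 to -0.46), which is 70.1% and 70.3% of the DMSO level. The slopes were -0.48 for Nop56 (edgeR adjusted p = 0.0100) and -0.49 for nop5 (adjusted p = 0.0124). Neither passed without the DMSO library (adjusted p = 0.155 for Nop56 and 0.106 for nop5).

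Ratios of counts within a library do not depend on how libraries are scaled, though they do carry the length relation. The ratio of Nop56 to nop5 was 0.889 at 60 min and 0.891 in DMSO, a log2 change of -0.0031 (-0.07 to 0.06). The ratio of Fib to nop5 was 0.568 at 60 min and 0.850 in DMSO, a log2 change of -0.58 (-0.65 to -0.51). This change was -0.27 (-0.34 to -0.19) without the length relation, smaller but still below 0. Between radicicol libraries the same ratio was 0.568 at 60 min and 0.678 at 15 min, a log2 change of -0.25 (-0.32 to -0.19), or -0.08 (-0.14 to -0.0098) without the length relation. At 60 min against 30 min the log2 change was -0.21 (-0.28 to -0.15). Without the length relation it was -0.05 (-0.11 to 0.02), an interval that includes 0. Intervals without the length relation leave out the error of the curve. With Nop56 as the partner, the ratio of Fib was 0.639 at 60 min and 0.955 in DMSO, a log2 change of -0.58, or -0.30 (-0.38 to -0.23) without the length relation.

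Nop60B, the fly dyskerin, is the pseudouridine synthase of the box H/ACA snoRNPs. It was the most abundant of the 8 by counts, with 580 CPM in DMSO, 531 at 15 min, 522 at 30 min and 459 at 60 min. The DMSO value was the highest and the 60 min value the lowest, with no overlap of their intervals. Its log2 fold at 60 min was -0.34 (-0.38 to -0.30), and its slope of -0.32 missed the threshold (edgeR adjusted p = 0.0833), though it passed without the length relation. Of its exon length 15.3% overlaps another annotated gene. Within its span lie 7 annotated snoRNA genes, of which 5 have an ID in the files, with summed counts of 6 in DMSO and 2, 3 and 1 at 15, 30 and 60 min, too few to compare in polyadenylated RNA.

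Nopp140 encodes a phosphoprotein of nucleoli and Cajal bodies that accompanies both classes of snoRNP. It was the 1 gene of the 8 that rose. It had 163 CPM in DMSO (157 to 169), 206 at 15 min (201 to 211), 213 at 30 min (208 to 218) and 270 at 60 min (265 to 276). All radicicol values lay above DMSO, and those at 15 and 30 min overlapped. The log2 fold was 0.34 at 15 min (0.28 to 0.40), 0.39 at 30 min (0.33 to 0.45) and 0.73 at 60 min (0.67 to 0.79), and the slope was 0.68 (edgeR adjusted p = 0.00255). The call was lost without the length relation (slope 0.21, adjusted p = 0.0634, fold 0.25 at 60 min) and without the 60 min library (adjusted p = 0.0668). Nopp140 counts were 0.945 of nop5 counts at 60 min and 0.399 of them in DMSO, a log2 change of 1.24 (1.17 to 1.32), or 0.63 (0.55 to 0.70) without the length relation. Its share of the summed counts of the 8 genes was 15.0% at 60 min (14.7 to 15.3%, Clopper-Pearson) and 6.82% in DMSO (6.59 to 7.06%).

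Surf6 and bys act in the maturation of the subunits. Surf6 encodes a nucleolar protein of ribosome assembly and had 213 CPM in DMSO, 172 at 15 min, 161 at 30 min and 108 at 60 min. Its log2 fold at 60 min was -0.98 (-1.04 to -0.91), just short of 2-fold, and its slope was -0.94 (edgeR adjusted p = 0.000912). Its ratio to nop5 differed by a log2 change of -0.47 at 60 min against DMSO (-0.55 to -0.39), but by -0.06 (-0.14 to 0.02) without the length relation, an interval that includes 0. Between radicicol libraries this change without the length relation was -0.11 (-0.18 to -0.03) at 60 min against 15 min, which leaves out 0. At 60 min against 30 min it was -0.05 (-0.13 to 0.03). The gene bys encodes bystin, the counterpart of yeast Enp1 in small subunit precursors. It was the least abundant of the 8 by counts, with 89.0 CPM in DMSO, 79.0 at 15 min, 75.9 at 30 min and 59.6 at 60 min. Its log2 fold at 60 min was -0.58 (-0.68 to -0.48) and its slope -0.56 (edgeR adjusted p = 0.00483). The ratio of bys to nop5 was 0.208 at 60 min and 0.219 in DMSO, and the interval of the log2 change, -0.18 to 0.04, included 0. The change was 0.12 (0.01 to 0.23) without the length relation.

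Tif-IA, the counterpart of yeast Rrn3, brings RNA polymerase I to the rDNA promoter. It showed the smallest difference of the 8 at 60 min. It had 223 CPM in DMSO (216 to 230), 228 at 15 min (223 to 234), 228 at 30 min (222 to 233) and 206 at 60 min (201 to 211). The first 3 libraries overlapped and the 60 min library lay below them. The log2 fold at 60 min was -0.11 (-0.17 to -0.06), and the slope of -0.12 did not pass (edgeR adjusted p = 0.305).

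**Figure D2:**
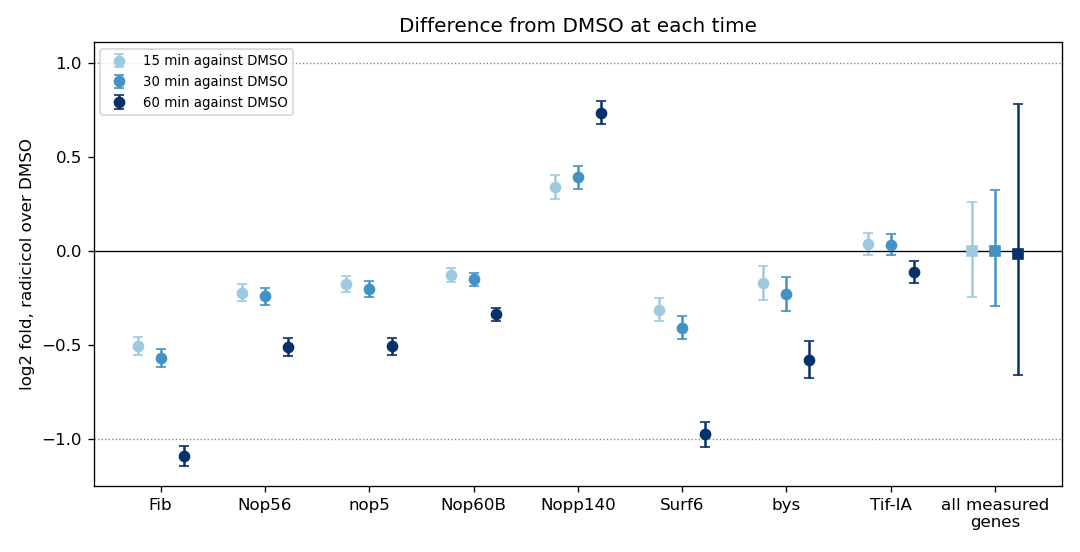
The log2 fold of radicicol over DMSO for each of the 8 genes at 15, 30 and 60 min, with exact 95% counting intervals, and for all measured genes the median with bars from the 25th to the 75th percentile; dotted lines mark 2-fold. The points for 15 and 30 min lie close together for each gene, and the 60 min points lie farther from 0, with Fib at -1.09 and Nopp140 at 0.73.

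The differences from DMSO came in 2 stages, a timing not particular to the 8 genes, since it was also seen over all genes grouped by exon length. Genes of up to 1281 bp had median log2 folds of -0.31 at 15 min, -0.36 at 30 min and -0.82 at 60 min. For genes from 3348 bp these medians were 0.32, 0.37 and 1.02. The first stage rests on the DMSO library, in which 44.1% of reads were unaligned, and the part of this was not tested. By 15 min the 8 genes had a median log2 fold of -0.17, against -0.0041 over all measured genes, with Fib at -0.51 and Nopp140 at 0.34 as the ends of the range. None of the 8 was past 2-fold at 15 or 30 min, when 1.23% and 1.32% of all genes were called lower and 1.4% and 3.36% higher. With total gene counts in place of TMM, 68.8% of the calls at 15 min were higher, against 53.1% with TMM. By intervals alone, at any size of fold, Fib, Nop56, nop5, Nop60B, Surf6 and bys lay below DMSO at 15 min and again at 30 min, and Nopp140 lay above it. With total gene counts the intervals of nop5 (-0.07 to 0.02), bys (-0.11 to 0.08) and Nop60B (-0.0098 to 0.06) at 15 min included 0, and without the length relation so did that of bys at 15 and 30 min (-0.13 to 0.06 and -0.17 to 0.01). Tif-IA with total gene counts lay above DMSO at 15 min (0.13 to 0.25) and at 30 min (0.07 to 0.19). The medians of all measured genes in that setting were 0.15 and 0.10. Without the count minimum Tif-IA lay above DMSO as well (0.01 to 0.13 and 0.02 to 0.13). With TMM the intervals lay below DMSO for 31.5% and 34.9% of all genes, and above it for 31.4% and 34.2%. Between 15 and 30 min little moved: the log2 folds of 30 min against 15 min ran from -0.10 for Surf6 (-0.15 to -0.04) to 0.05 for Nopp140 (-0.0012 to 0.10), and only the intervals of Surf6 and Fib (-0.11 to -0.02) left out 0, as did those of 15% of all genes on the lower and 21% on the higher side. None of the 8 was past 2-fold in that step, where 0.444% of all genes were called lower and 0.799% higher. At 60 min against DMSO the median was -0.51, against -0.02 over all genes. Fib was called lower and none was called higher, where 12.6% of all genes were called lower and 19.7% higher. By intervals alone 7 lay below DMSO and Nopp140 above it, where 42.9% of all genes lay below and 42% above.

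The last step does not compare with the DMSO library, though that library was the reference of the TMM scaling. At 60 min against 30 min the log2 fold was -0.57 for Surf6 (-0.63 to -0.50), -0.52 for Fib (-0.57 to -0.47), -0.35 for bys (-0.44 to -0.26), -0.30 for nop5 and -0.27 for Nop56. It was -0.19 for Nop60B (-0.22 to -0.15), -0.15 for Tif-IA (-0.19 to -0.10) and 0.34 for Nopp140 (0.30 to 0.39). All 8 intervals left out 0, as did those of 39.6% of all genes on the lower and 39.2% on the higher side. For Nopp140 the fold was 0.03 (-0.01 to 0.08) without the length relation, which includes 0. None of the 8 was past 2-fold, where 1.03% of all genes were called lower and 9.81% higher. At 60 min against 15 min the median of the 8 was -0.31, against -0.02 over all genes. None was past 2-fold, where 2.9% were called lower and 13% higher. By intervals alone 7 of the 8 were lower and Nopp140 higher, where 41.2% of all genes were lower and 40.4% higher.

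By level per kilobase of exon the genes stood between the 77.3 and 96.2 percentile of all genes with a length in DMSO. In DMSO the order was Fib with 263 CPM per kb (256 to 269), nop5 with 225 (220 to 230), Nop56 with 208 (203 to 213), Surf6 with 186 (180 to 192) and Nop60B with 170 (167 to 173). Tif-IA with 104 (101 to 107), bys with 58.6 (55.8 to 61.6) and Nopp140 with 50.3 (48.5 to 52.2) followed, and no neighbours in this order overlapped. At 60 min nop5 came first with 158 CPM per kb (155 to 161), followed by Nop56 with 146, Nop60B with 135 and Fib with 123 (120 to 127). Tif-IA with 96.2 (93.8 to 98.6) and Surf6 with 94.3 (91.1 to 97.6) overlapped, Nopp140 had 83.7 and bys 39.3. Fib moved to the fourth place of the 8 at 60 min, against the first in DMSO. These levels carry the length relation, and the order without it was not computed. Without it the log2 fold at 60 min against DMSO was lower for Nop60B (-0.89) than for Fib (-0.64). Exon lengths join all annotated isoforms, so the level per kb of a gene with alternative exons is understated.

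Exon length moved with the folds of all genes in these libraries. At 60 min against DMSO the median log2 fold was -0.82 for genes of up to 1281 bp, -0.33 for 1282 to 2036 bp, 0.19 for 2037 to 3344 bp, and 1.02 from 3348 bp, in 4 bins of about 1803 genes. Between radicicol libraries, at 60 min against 15 min, the medians ran from -0.51 to 0.69. Surf6 (1150 bp) and Fib (1318 bp) are the shortest of the 8, and Nopp140 (3232 bp) and Nop60B (3412 bp) the longest. Without the length relation the log2 fold at 60 min was -0.64 for Fib (-0.70 to -0.59), which was no longer past 2-fold, and -0.44 for Surf6 (-0.50 to -0.37). It was -0.38 for nop5, -0.34 for Nop56, -0.26 for bys, -0.17 for Tif-IA and 0.25 for Nopp140 (0.19 to 0.31). For Nop60B it was -0.89 (-0.92 to -0.85), now the lowest of the 8. The median of the 8 without the length relation was -0.36, against -0.09 over all genes with a length.

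In the slope test without the length relation 6 of the 8 fell and 0 rose, where 31.5% of all genes with a length fell and 22.7% rose. Nop60B passed with a slope of -0.85 (edgeR adjusted p = 0.00217), next to Fib with -0.60 (adjusted p = 0.00193) and Surf6 with -0.44 (adjusted p = 0.00207). The slope of Nopp140 was 0.21 and missed the threshold (edgeR adjusted p = 0.0634). Fib, Surf6, bys, nop5 and Nop56 thus passed both ways, while the results for Nopp140 and Nop60B depended on the length relation. Whether that relation comes from the cells or from the libraries was not tested.

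**Figure D3:**
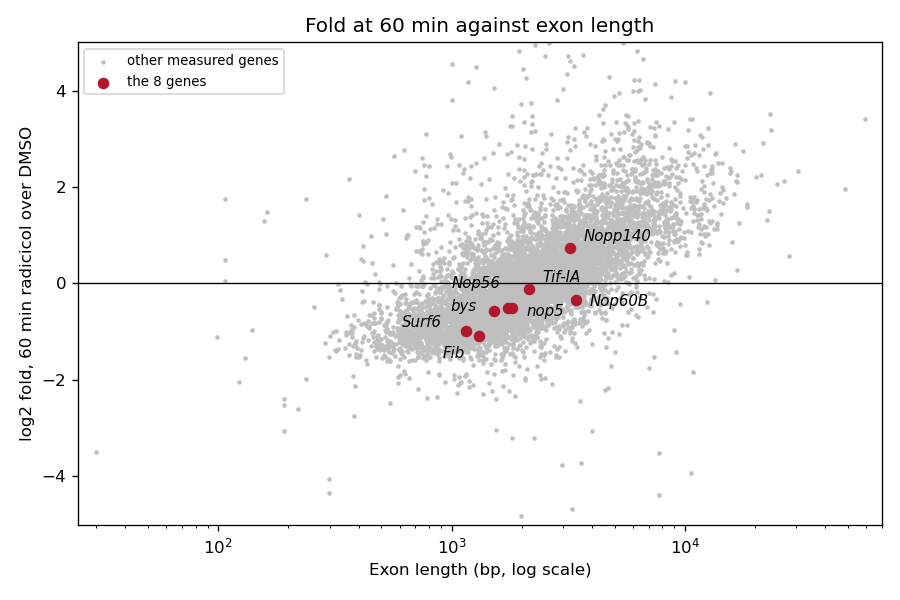
The log2 fold of 60 min radicicol over DMSO against exon length (bp, log axis) for measured genes in grey and the 8 genes in red; 7185 genes lie within the axis limits of 5 on either side of 0 and 27 lie beyond. Shorter genes sit lower, Surf6 and Fib are at the short end below 0, and Nop60B lies below Nopp140 at nearly the same length.

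The 8 genes did not all keep together. By the distance over the 3 log2 folds against DMSO, the nearest pair was Nop56 and nop5 (0.059), followed by nop5 and bys (0.075) and Nop56 and bys (0.086). Fib and Surf6 were each other's nearest (0.28), and Fib and Nopp140 were farthest apart (2.23). These distances are a description over 3 folds that share the DMSO library.

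The machinery of RNA polymerase I, of which Tif-IA is a cofactor, was examined through a list of 11 symbols with 9 measured genes. Of these 7 fell and 0 rose, where 33.8% of all genes fell and 34.1% rose, and at 60 min 4 were called lower, where 12.6% of all genes were. The median log2 fold at 60 min was -0.71, and -0.63 without the length relation. Polr1H, encoding a small subunit, fell to 8.29 CPM at 60 min, against 25.2 in DMSO (log2 fold -1.60, -1.83 to -1.38, edgeR adjusted p = 0.000905). Polr1D (-1.47, -1.66 to -1.29) and Polr1C (-1.13, -1.24 to -1.01), encoding subunits shared with RNA polymerase III, fell as well. These 3 had -0.68, -0.71 and -0.59 without the length relation. At the other end stood TAF1B, a promoter factor of RNA polymerase I, with -0.05 (-0.18 to 0.08), Polr1A, the largest subunit, with -0.14 (-0.21 to -0.06), and Polr1E with -0.33 (-0.45 to -0.21). Of these 3 only Polr1E fell (edgeR adjusted p = 0.0335). Without the length relation Polr1A had -1.17 and fell (adjusted p = 0.000398), TAF1B had -0.63 and fell (adjusted p = 0.00206), and Polr1E had 0.06.

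Of 8 measured genes of snoRNP partners and R2TP assembly, 5 fell and 1 rose (33.8% and 34.1% of all genes), and 3 were called lower at 60 min (12.6% of all genes). The median log2 fold was -0.61, and -0.31 without the length relation, where 4 fell and 0 rose (31.5% and 22.7% of all genes). Nop10 and NHP2 encode partners of Nop60B in the H/ACA core. NHP2 fell to 87.6 CPM at 60 min, against 187 in DMSO (log2 fold -1.10, -1.17 to -1.02, edgeR adjusted p = 0.00135), and had -0.35 without the length relation. Nop10 fell to 15.2 CPM, against 39.5 in DMSO (-1.38, -1.55 to -1.21), though 31.7% of its exon length overlaps another gene, and without the length relation it had -0.28 and did not pass (adjusted p = 0.104). Nufip, a box C/D assembly factor, fell with -1.55 (-1.87 to -1.23) and -1.31 without the length relation. Of R2TP, pont fell with -0.56 (-0.64 to -0.48, edgeR adjusted p = 0.00558) and had -0.34 without the length relation. It is named here, after its values were seen, as the partner of rept. The gene spag, encoding the RPAP3 subunit, had -0.24 (-0.39 to -0.09, edgeR adjusted p = 0.0984) and rept -0.22 (-0.31 to -0.14, adjusted p = 0.0868). Pih1D1 rose with 0.42 (0.31 to 0.52, adjusted p = 0.0324) but had -0.45 without the length relation.

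Of 29 measured genes of rRNA precursor processing and subunit assembly, 21 fell and 2 rose (33.8% and 34.1% of all genes), and at 60 min 5 were called lower and 1 higher (12.6% and 19.7% of all genes). The median log2 fold was -0.52, close to that of the 8 genes, and -0.45 without the length relation, where 23 fell and 1 rose (31.5% and 22.7% of all genes). The lowest were Bka with -1.38 (-1.57 to -1.20), Nph, a nucleoplasmin family gene, with -1.18 (-1.22 to -1.13), and Non3 with -1.17 (-1.26 to -1.08), all of which fell (edgeR adjusted p = 0.00121, 0.000941 and 0.00104). They had -0.63, -0.45 and -0.60 without the length relation. Nop17l stood apart. It is in this list by its name, after yeast Nop17, a subunit of R2TP in that species. Whether the fly gene acts in ribosome assembly was not examined. Nop17l rose to 165 CPM at 60 min, against 33.8 in DMSO (log2 fold 2.29, 2.17 to 2.41, edgeR adjusted p = 0.000209), and had 1.54 without the length relation. Next came l(2)k09022 with 0.43 (0.33 to 0.53), which rose (adjusted p = 0.0292) but had -0.84 without the length relation, and Mat89Ba, the counterpart of human NOL6, with 0.17 (0.07 to 0.27, adjusted p = 0.410). Mat89Ba had -0.51 without the length relation and fell (adjusted p = 0.00289).

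The RNA exosome trims rRNA precursors, and of its 11 measured genes 8 fell and 0 rose (33.8% and 34.1% of all genes), with 6 called lower at 60 min (12.6% of all genes). The median log2 fold was -1.12, and -0.61 without the length relation, where 9 fell (31.5% of all genes). Rrp42 (-1.56, -1.75 to -1.38), Csl4 (-1.48, -1.61 to -1.36) and Rrp40 (-1.42, -1.59 to -1.26), all of the exosome core, were lowest and fell (edgeR adjusted p = 0.00109, 0.000876 and 0.000662). Of the Rrp40 exon length 35.1% overlaps another gene. The helicase gene Mtr4 (0.33, 0.23 to 0.44) and the nuclease genes Dis3 (-0.02, -0.12 to 0.08) and Rrp6 (-0.23, -0.36 to -0.10) did not pass (adjusted p = 0.0927, 0.683 and 0.0890). Exon length is 940 to 1031 bp for the first 3 genes and 3233 to 3588 bp for the others. Without the length relation Rrp42, Csl4 and Rrp40 had -0.93, -0.83 and -0.82, none past 2-fold, while Dis3 with -0.63 and Rrp6 with -0.71 fell (edgeR adjusted p = 0.00131 and 0.00210) and Mtr4 had -0.27 (adjusted p = 0.0796).

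With Myc itself not analysed here, its network was examined through 11 measured genes of partners and of factors that act on the Myc protein. Here 8 rose and 2 fell (34.1% and 33.8% of all genes), and at 60 min 8 were called higher and 1 lower (19.7% and 12.6% of all genes). The median log2 fold was 1.45 at 60 min. Without the length relation it was -0.05, against -0.09 over all genes with a length. By the slopes without the length relation 5 rose and 3 fell (22.7% and 31.5% of all genes). The list has a median exon length of 5517 bp, against 2036 bp over all genes. Max, encoding a partner of Myc, fell to 23.2 CPM at 60 min, against 45.5 in DMSO (log2 fold -0.97, -1.12 to -0.83, edgeR adjusted p = 0.00138), with 30.1% of its exon length shared with another gene. The gene bigmax, encoding the partner of Mondo, fell with -1.06 (-1.21 to -0.92, adjusted p = 0.00137). Max had -0.51 and bigmax -0.42 without the length relation.

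Mnt, which encodes a repressor that competes with Myc for Max, rose to 15.0 CPM at 60 min, against 1.16 in DMSO (log2 fold 3.70, 3.07 to 4.40, edgeR adjusted p = 0.00186). It had 2.78 without the length relation and was the highest of this list. The deubiquitinase gene puf rose to 61.9 CPM, against 9.57 in DMSO (2.69, 2.47 to 2.92), and the histone demethylase gene Kdm5 to 108 CPM, against 29.3 in DMSO (1.88, 1.75 to 2.02). Without the length relation these had 0.83 and 0.52. Gcn5, encoding a histone acetyltransferase, had 0.14 (0.02 to 0.25, adjusted p = 0.551).

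**Figure D4:**
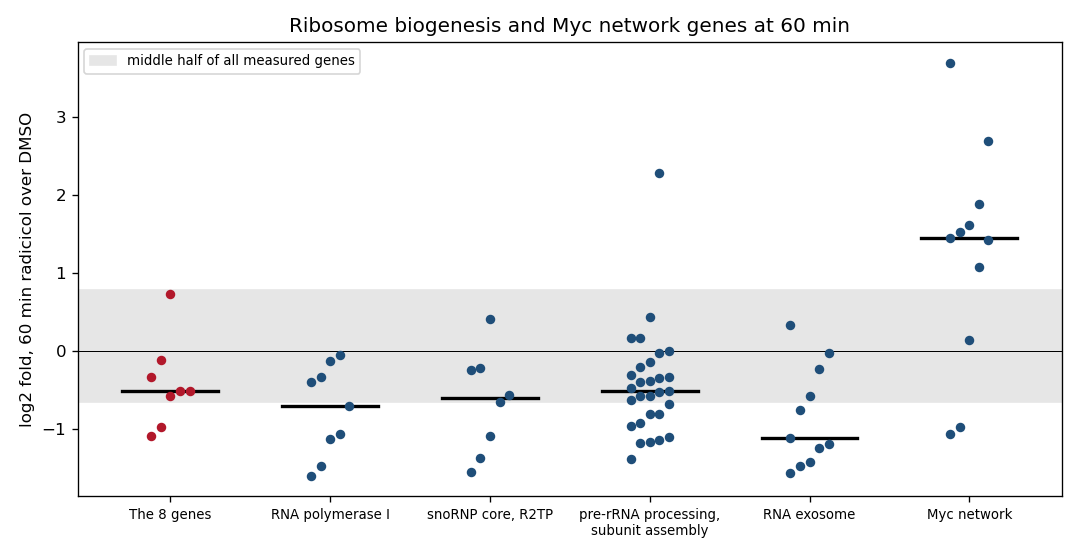
The log2 fold of 60 min radicicol over DMSO for the 8 genes in red and for the genes of 5 related lists in blue, 1 point per gene, with black bars at the medians and a grey band from the 25th to the 75th percentile of all measured genes. The medians are -0.51 for the 8 genes, -0.71, -0.61, -0.52 and -1.12 for the ribosome biogenesis lists, and 1.45 for the Myc network, with Nop17l at 2.29 and Mnt at 3.70 as high points.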

How the data were processed

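The deposited tables, 1 per library, hold whole-number read counts for each FlyBase gene, not normalised by the authors. Per the submitters' processing notes, Bowtie, HTSeq and the build dm3 were used. Their versions and settings, strand included, and the gene annotation used are not stated in the labels. Each table ended with 5 entries that name no gene (unaligned reads, 17.8% to 44.1%, reads in no gene, 8.19% to 13.5%, ambiguous reads, 0.771% to 1.09%, and 2 entries at 0), and these stayed out of all sums and tests.

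Symbols came from a gene name table (13524 IDs) and RefSeq synonyms (9 IDs), which left 1336 IDs without one. Exon lengths came from the Ensembl annotation of the later build BDGP6 and were found for 91.6% of measured genes, so no coordinates are given.

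Counts were scaled by TMM (edgeR 4.0.16, R 4.3.3, DMSO as reference). Intervals of folds come from Clopper-Pearson limits on the split of a gene's counts between both libraries, at 95%, and intervals of levels are exact Poisson. A mean of 20 counts or more made a gene measured. The slope was tested with edgeR glmQLFit and glmQLFTest over minutes, with 2 residual degrees of freedom. The script was also run on simulated data in which few genes changed, each along a straight line. Such a run cannot give the error rate of the test here, where changes were common. The length relation was removed by a loess curve (span 0.5, 0.5 added to counts) of each library's log2 level, relative to the gene's mean, on log2 exon length. Ratio intervals are exact conditional odds ratio intervals.

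The genes and lists were chosen with earlier results of these data known. Named in full are the 8 genes and, from each related list, the 3 highest and 3 lowest at 60 min. After the files were read, 3 symbols of the lists were respelled to match the name table, and pes was taken out because it names a scavenger receptor gene. Genes most like Myc, and motifs in promoters, were not analysed here.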

Additional observations from a re-analysis of the deposited data

How the results depend on the processing

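Counting intervals of the 8 genes were narrow at these depths, and the spread between cultures was not measured. No paired analysis was possible because each condition had 1 library. Of the recomputed counts of the 8 genes past a rule, 74 were equal to the main count or within 1.5 times of it, and 8 were not. Most of the 74 were 0 in the main run as well, where no ratio exists, so they say little about stability. With a 1.5-fold threshold 1 gene was higher and 2 were lower at 60 min against DMSO, and 1 was lower at 60 min against 15 min. The share of all genes past 1.5-fold was not computed, so these counts cannot be set against it. Without the length relation 0 genes were lower at 60 min against DMSO and 0 rose. Leaving out 1 library at a time gave 2 to 6 genes that fell and 0 to 1 that rose, with 1 residual degree of freedom, and the lowest counts came without the 60 min library. Of all genes 7.41% to 33.7% fell and 11.5% to 34.1% rose in these runs. The slope of Tif-IA then ran from -0.21 without the DMSO library to 0.064 without the 60 min library (edgeR adjusted p = 0.472 and 0.916), and the cause was not tested. DESeq2 1.42.0 gave 6 that fell, Nop60B added (adjusted p = 0.0193), and 1 that rose, where 31.2% of all genes fell and 31.9% rose.

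With total gene counts as library size the median of all genes moved to 0.15 at 15 min, against -0.0041, and Nop60B then had 0.03 at 15 min (-0.0098 to 0.06), against -0.13. No other fold of the 8 genes changed sign under any setting. Over all genes, total counts gave 192 higher and 87 lower at 15 min, against 110 and 97, and 346 lower at 60 min against 15 min, where TMM gave 229. Without the count minimum 332 and 353 genes were lower at 15 and 30 min, against 97 and 104, and 124 at 60 min against 30 min, where 81 were. At 30 min against 15 min it gave 107 higher and 55 lower, against 63 and 35. Over all genes 904 rose and 584 fell without the 60 min library, against 2685 and 2668, and 1642 rose without the length relation. The comparison of 60 min with 30 min and the ratios without the length relation were added after the data were seen.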
